A study of Gallus gallus with 8 samples.

Results

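CD3E, CD4, CD8A, CTLA4, ICOS and IL7R, genes of the T cell surface, were followed in peripheral blood mononuclear cells (PBMC) and in whole blood of chickens. The genes were chosen by name, with earlier results of these data known. Every probe that the array design or a RefSeq gene table tied to one of these genes was used. They were 6 of 7096 named genes, with 22 of the 60539 probes on the array, and all 6 genes passed the filter on dim probes. The birds were 4 male broilers, 9 weeks old, reared under standard conditions on a conventional diet without restriction, and no genotype or treatment distinguished them. Each bird gave a PBMC sample, separated right after sampling on a Ficoll Histopaque density gradient, and a whole blood sample that was not separated. Each of the 8 samples was read on its own single-colour Agilent array.

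The T cell receptor recognises a peptide held by a major histocompatibility complex (MHC) molecule, and the CD3 chains that travel with it, CD3E among them, carry the signal into the cell. The coreceptor CD4 marks helper T cells and binds MHC class II, while CD8, built from CD8A alone or with a beta chain, marks cytotoxic T cells and binds MHC class I. A second signal decides how a cell responds: CD28 and ICOS stimulate, and CTLA4 restrains by competing with CD28 for the same ligands. IL7R binds interleukin 7, on which naive and memory T cells depend for survival. These roles are best known from mouse and human. In chicken blood, red cells and thrombocytes keep their nuclei, so whole blood RNA comes from those cells as well as from white cells.

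Levels are log2 of the background-subtracted spot signal over the 75th percentile of all probes on its array, so 0 stands for a probe as bright as that percentile. A difference is PBMC minus whole blood on this log2 scale, and 1 unit is a doubling. Probes differ in how brightly they bind, so levels of different genes were not ranked. The 75th percentile lay between 663 and 846 signal units, and 64.5% to 72.1% of probes on an array were well above background. All arrays shared 1 slide and 1 scan. PBMC and whole blood arrays lay in different columns of the slide, which leaves the slide position and the kind of sample impossible to separate: they cannot be told apart. Slide row 1 held birds 2 and 4, and slide row 2 held birds 1 and 3, so slide row and bird cannot be told apart either. Of 34043 features tested with limma, 39.8% were higher and 39.3% lower in PBMC (Benjamini-Hochberg adjusted p under 0.05), and the median difference was 0.01. With the authors' deposited values that median was −0.14.

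All 6 genes were higher in PBMC, and for each of them the lowest PBMC array lay above the highest whole blood array. How many of all genes were separated in this way was not counted. The differences ran between 1.02 for CD8A and 2.97 for CTLA4, with a median of 2.78, against a median of 0.10 over the 5558 named genes tested. Among those named genes 41.8% were higher in PBMC. Being higher was therefore common, and the sizes of the differences are what sets the members' values beside those of other genes: CTLA4, ICOS, CD4 and IL7R exceeded 98.8%, 98.6%, 97.9% and 97.2% of the named genes, CD3E exceeded 78.9% and CD8A 65.4%. The place of ICOS rests on a size that depended on 1 whole blood array and on the background correction. ICOS also passed the filter on dim probes only through its PBMC arrays, where it was brighter. The place of CD8A rests on the probe with the smallest difference of its 7, and that of CD3E on the smallest of its 4. CTLA4 did not stay above CD4 and IL7R in every setting. With the authors' deposited values it differed by 2.32, against 2.48 and 2.45. It was also below both under quantile normalization, cyclic loess and the background correction normexp, described below. With the mean of probes CTLA4 differed by 3.05, against 2.66 for CD4 and 2.81 for IL7R. RNA of a mixed sample was measured, and levels are relative to the other signals of the same array. For whole blood, a smaller share of T cells, more RNA from other cells and less RNA per T cell therefore cannot be told apart.

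**Figure D1:**
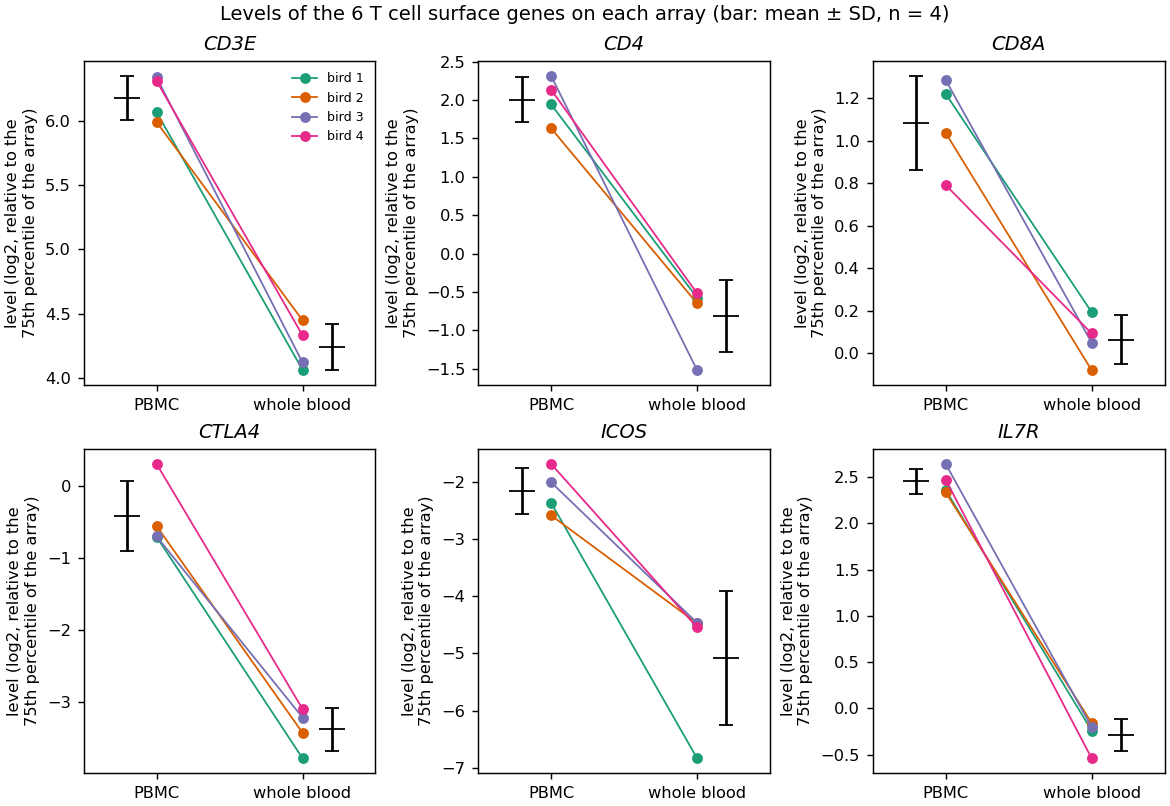
Level of each gene (vertical axis, log2 signal over the 75th percentile, a separate scale in each panel) in PBMC at the left and whole blood at the right, with 1 point per bird, lines joining the samples of a bird and bars for the mean and SD of 4 arrays. In every panel all PBMC points lie above all whole blood points, and the low whole blood point of ICOS is bird 1 at −6.83.

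CD3E, the signalling chain of the receptor complex, stood at 6.07, 5.99, 6.34 and 6.31 in PBMC of birds 1 to 4, against 4.07, 4.45, 4.12 and 4.33 in whole blood. The PBMC arrays were all high and close together, and so were the whole blood arrays at their lower level. The means were 6.17 ± 0.17 in PBMC and 4.24 ± 0.18 in whole blood (SD, n = 4 each). This gave a difference of 1.93 ± 0.15 (SE), a 3.81-fold higher signal (limma adjusted p = 3.53e-06). Its 3 other probes differed by 2.24, 2.30 and 2.33, so the brightest probe gave the smallest of the 4 values. Before scaling, the brightest probe read 56665, 48085, 61229 and 59052 units in PBMC of birds 1 to 4. Saturation at such signals, and its part in the smaller difference, was not tested. Of these, the pair at 2.24 and 2.30 carry the same design number in their names and may not be independent readings.

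CD4, the coreceptor of helper T cells, had levels of 1.94, 1.63, 2.32 and 2.13 in PBMC of birds 1 to 4, against −0.57, −0.65, −1.52 and −0.52 in whole blood. Whole blood of bird 3 was the low sample, and the other 3 whole blood samples lay within 0.13 of each other. The means were 2.01 ± 0.29 in PBMC and −0.81 ± 0.47 in whole blood (SD, n = 4 each). The difference was 2.82 ± 0.25 (SE), or 7.06-fold (limma adjusted p = 7.99e-06). The 3 dimmer CD4 probes differed by 2.57, 2.58 and 2.67. On whole blood of bird 3 these 3 probes read −1.56, −1.94 and −2.42, each the highest whole blood value of its probe, so the low value there belonged to the brightest probe alone.

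CD8A, the coreceptor chain of cytotoxic T cells, had levels of 1.22, 1.04, 1.29 and 0.79 in PBMC of birds 1 to 4, against 0.19, −0.08, 0.05 and 0.09 in whole blood. The groups were separate, but the gap between the lowest PBMC and the highest whole blood array was 0.60, the narrowest of the 6 genes. The means were 1.08 ± 0.22 in PBMC and 0.06 ± 0.11 in whole blood (SD, n = 4 each). The difference was 1.02 ± 0.15 (SE), or 2.03-fold (limma adjusted p = 1.98e-04).

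The size of the CD8A difference depended on the probe. Ordered by brightness, the 7 CD8A probes differed by 1.02, 1.21, 1.74, 2.10, 2.24, 2.37 and 2.06. The fold in PBMC over whole blood thus lay between 2.03 and 5.17. Each of them passed the test (limma, adjusted over all probes tested, highest adjusted p = 1.80e-04). The sixth probe stood at −0.87 ± 0.08 in PBMC and −3.24 ± 0.22 in whole blood (SD, n = 4 each). On the second probe the means were 1.09 ± 0.24 in PBMC and −0.13 ± 0.10 in whole blood (SD, n = 4 each). The spread over probes, 1.35, was wider than that of CD3E (0.40), CD4 (0.25), CTLA4 (0.15) or IL7R (0.46). With the mean of its probes in place of the brightest, CD8A differed by 1.82.

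**Figure D2:**
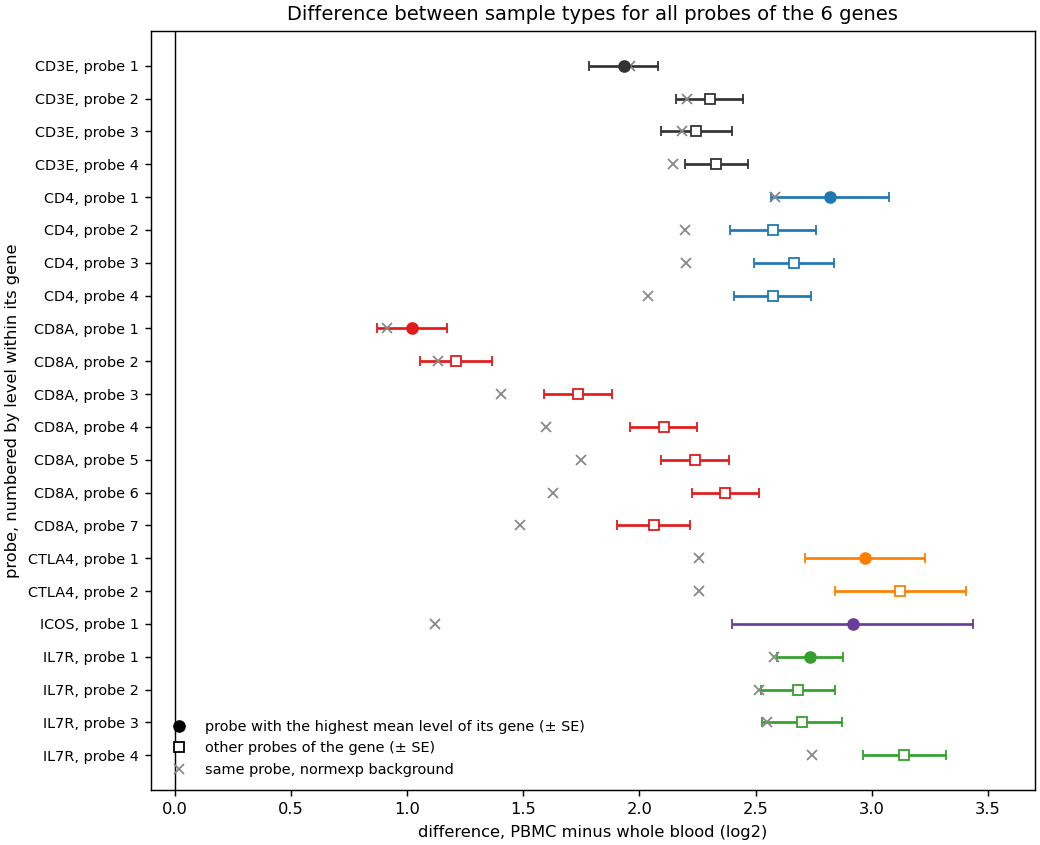
Difference PBMC minus whole blood (log2) of each of the 22 probes with its standard error from the limma fit, grouped by gene and numbered by brightness within a gene. All 22 lie above 0, and the CD8A probes spread between 1.02 and 2.37.

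CTLA4, the inhibitory receptor, had levels of −0.70, −0.55, −0.70 and 0.31 in PBMC of birds 1 to 4, against −3.78, −3.43, −3.22 and −3.10 in whole blood. PBMC of bird 4 was the high sample, and whole blood of bird 4 was also the highest of its group. The means were −0.41 ± 0.49 in PBMC and −3.38 ± 0.30 in whole blood (SD, n = 4 each). The difference was 2.97 ± 0.26 (SE), or 7.85-fold (limma adjusted p = 6.74e-06). The second CTLA4 probe differed by 3.12 and had the same bird highest in both sample types. Another background correction, normexp, models what is left after the background is subtracted and then adds 50 units to every signal. With it the CTLA4 difference was 2.26.

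ICOS, the inducible costimulatory receptor, was read by 1 probe and was the dimmest signal among the members' probes. Its levels were −2.37, −2.59, −2.01 and −1.69 in PBMC of birds 1 to 4, against −6.83, −4.47, −4.47 and −4.55 in whole blood. Before scaling, these were signals of 164, 126, 189 and 232 units in PBMC, against 6.78, 32.9, 33.1 and 28.4 units in whole blood. The value for whole blood of bird 1 was not well above background, so ICOS was measured on 3 of 4 whole blood arrays. It passed the filter on dim probes through PBMC alone. The means were −2.16 ± 0.40 in PBMC and −5.08 ± 1.17 in whole blood (SD, n = 4 each). The difference was 2.92 ± 0.52 (SE), or 7.56-fold (limma adjusted p = 6.48e-04). Without whole blood of bird 1 it was 2.33. With normexp, which added 50 units to each of these signals, it was 1.12. The authors' deposited values, which carry no background correction, gave 1.16. The test was passed in each of these settings, while the size was not settled to within 1.5 times.

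IL7R, the receptor chain for interleukin 7, had levels of 2.36, 2.33, 2.64 and 2.47 in PBMC of birds 1 to 4, against −0.24, −0.16, −0.20 and −0.54 in whole blood. Both groups were tight, with means of 2.45 ± 0.14 in PBMC and −0.28 ± 0.17 in whole blood (SD, n = 4 each). The difference was 2.74 ± 0.14 (SE), or 6.66-fold (limma adjusted p = 5.92e-07). The 3 other IL7R probes differed by 2.68, 2.70 and 3.14. The processing alternatives put IL7R between 2.45 and 2.94.

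All 22 probes of the 6 genes passed the test as higher in PBMC, against 40.4% of all 41901 probes tested. All 22 were also higher in all 4 birds, with no overlap between groups. The share of all probes without overlap was not counted, so this separation is not shown to be particular to the 22. The probe of ICOS was the only one of the 22 that was not well above background on all 8 arrays.

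Whether 2 members differed by unequal amounts was tested on their ratio within each array, which cancels the scaling of the array. With 15 pairs compared, 9 passed (exact two-sided permutation test over 70 assignments of the arrays, p = 0.0286, the smallest this design can give, and p = 0.0476 adjusted over the 15 pairs). An exact test by sign flips within the 4 birds cannot go below p = 0.125. Relative to CD8A, CTLA4 differed by a further 1.95, ICOS by 1.90, CD4 by 1.80 and IL7R by 1.71. Relative to CD3E, the excess was 1.04 for CTLA4, 0.99 for ICOS, 0.89 for CD4 and 0.80 for IL7R, and CD3E exceeded CD8A by 0.91. CD3E was read here by the probe with the smallest difference of its 4. With 15 pairs the adjusted p falls under 0.05 only if at least 9 pairs reach the smallest p, and 9 did. Those 9 include ICOS over CD8A and ICOS over CD3E. The adjusted p of all 9 therefore depends on ICOS, which passed the filter on dim probes only through PBMC.

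The 6 pairs among CTLA4, ICOS, CD4 and IL7R did not pass, with values between 0.05 ± 0.49 (SE) for CTLA4 over ICOS and 0.24 ± 0.33 (SE) for CTLA4 over IL7R. These standard errors leave room for unequal changes. The adjusted test depended on the setting. Under normexp and with the authors' values 9 pairs passed, but not the same 9, and under quantile normalization, cyclic loess and the mean of probes 6, 6 and 8 pairs reached the smallest p and none passed after adjustment (exact permutation, smallest adjusted p = 0.0714, 0.0714 and 0.0536). At the unadjusted p of 0.0286 in the exact permutation test, 5 of the 9 pairs held in all 5 other settings: CTLA4 over CD8A, CD4 over CD8A, IL7R over CD8A, IL7R over CD3E and CD3E over CD8A. With the mean of probes their sizes were smaller for CD4 over CD8A (0.84), IL7R over CD8A (0.99) and CD3E over CD8A (0.38).

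Pairs with ICOS moved most. ICOS over CD8A was 0.21 under normexp and 0.38 with the authors' values, and did not pass there. ICOS over CD3E, reported at 0.99 ± 0.54 (SE), changed sign under normexp (−0.84), the authors' values (−0.63) and cyclic loess (−0.09). Under normexp and the authors' values it passed in that opposite direction (exact permutation p = 0.0286). Without whole blood of bird 1 it was 0.46. Under normexp and the authors' values, 3 pairs that had not passed did so: CTLA4 over ICOS at 1.14 and 1.17, ICOS over CD4 at −1.47 and −1.33, and ICOS over IL7R at −1.46 and −1.29. The excess of CTLA4 over CD3E was 0.30 under normexp and 0.09 under cyclic loess, and that of CD4 over CD3E was 0.37 under cyclic loess.

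**Figure D3:**
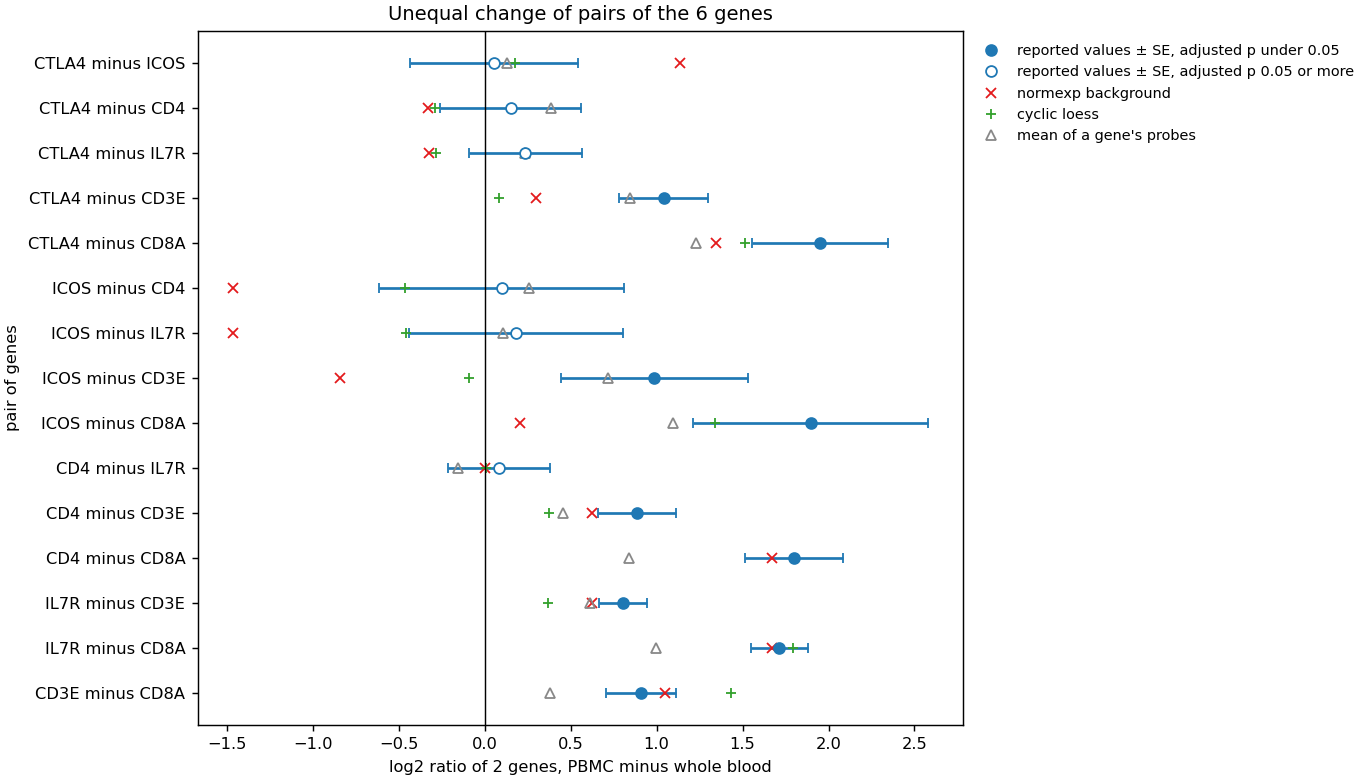
Difference between 2 genes' PBMC minus whole blood differences (log2) for the 15 pairs. Circles are the reported values with their standard errors, filled where the adjusted p was under 0.05 (exact permutation). Other markers are the values under normexp, cyclic loess and the mean of probes. The 4 pairs of CTLA4, ICOS, CD4 and IL7R over CD8A have the highest reported values, between 1.71 and 1.95.

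The comparison of helper and cytotoxic coreceptors was planned when the genes were chosen, with earlier results of these data known. The CD4 to CD8A ratio was higher in PBMC than in whole blood by 1.49, 1.16, 2.59 and 1.95 in birds 1 to 4, with a mean of 1.80 ± 0.29 (SE), or 3.48-fold (exact permutation p = 0.0286). All 4 birds went the same way, though the exact test by sign flips within birds gave p = 0.125. The value rests on the choice of probes. Over the 28 combinations of a CD4 probe with a CD8A probe it lay between 0.20 and 1.80, with a median of 0.66. The reported 1.80 was thus the highest of the 28. In bird 3 it used the low whole blood reading of −1.52, which belonged to the brightest CD4 probe alone. All 28 were above 0 in all 4 birds, and 17 of 28 passed the exact permutation test. The mean of each gene's probes gave 0.84. The direction was thus shared by every combination of probes, and the size was not.

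**Figure D4:**
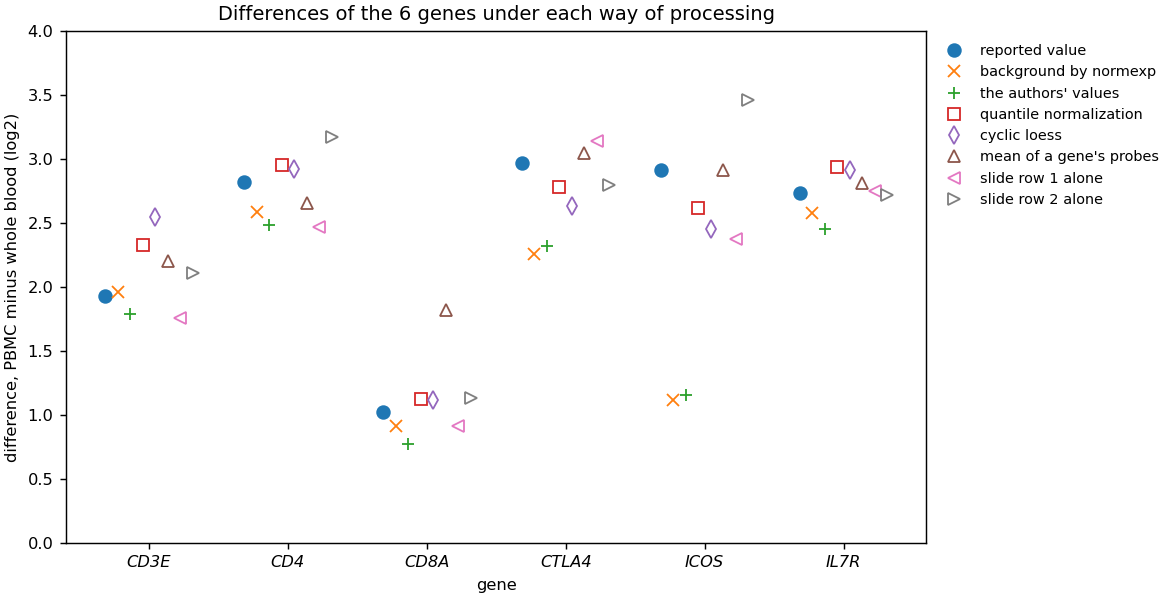
Difference PBMC minus whole blood (log2) of the 6 genes under each processing setting and within each slide row alone. Row 1 holds birds 2 and 4 and row 2 holds birds 1 and 3. IL7R stays between 2.45 and 2.94. CD4 lies between 2.48 and 2.95 under the processing settings, at 2.47 within slide row 1 and at 3.17 within slide row 2. CD3E reaches 2.55 with cyclic loess, and CD8A reaches 1.82 with the mean of its probes. ICOS drops to 1.12 with normexp and 1.16 with the authors' values, and reaches 3.46 within slide row 2.

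Birds differed in which member was high, and probes of a gene did not always give the same order. In PBMC, bird 3 was highest on 4 of 4 CD4 probes, 3 of 4 IL7R probes, 4 of 7 CD8A probes and 2 of 4 CD3E probes. Bird 4 was highest in PBMC on both CTLA4 probes, the ICOS probe and the other 2 CD3E probes. Over 5530 named genes, PBMC was highest in bird 3 for 26.3% and in bird 4 for 19.8%. Probes of 1 gene on the same arrays are not independent readings. In whole blood, bird 3 was highest on 3 of 4 CD4 probes, bird 4 on 3 of 4 CD3E probes and both CTLA4 probes, bird 2 on 4 of 4 IL7R probes and bird 1 on 5 of 7 CD8A probes. The same bird was highest in both sample types on 2 of 2 CTLA4 probes, 3 of 4 CD4 probes and 2 of 4 CD3E probes, and on none of the CD8A, ICOS or IL7R probes. How often this held over all genes was not counted. PBMC of bird 3 also carried the least red cell signal: the summed relative signal of the red cell list below was 199 there, against 382, 421 and 528 in PBMC of birds 1, 2 and 4. Its part in the order of the birds was not tested.

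Around the members, 7 lists of T cell genes held 138 genes, of which 72 were tested. In PBMC 64 of the 72 were higher (88.9%, against 41.8% of named genes), 4 were lower (38.1% of named genes were) and 4 did not pass, with a median difference of 2.22. Over the 65 of these genes read well above background on each of the 8 arrays, 58 were higher, 4 lower and 3 did not pass, with a median of 2.19. As the lists were chosen with earlier results of these data known, the counts describe them and no test was made of a list.

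Of 9 tested genes of the receptor complex, coreceptor partners and adhesion list, 8 were higher in PBMC and 1 lower, with a median difference of 2.18. PTPRC (CD45), the phosphatase that sets the receptor's threshold, differed by 2.63 ± 0.14 (SE), though its 6 probes ran between 1.17 and 3.66. TRAT1, an adaptor of the receptor complex, differed by 2.58 (1.54 with normexp) and CD5, a brake on receptor signalling, by 2.47. CD99, an adhesion molecule, was the one that was lower, at −1.51 ± 0.24 (SE, limma adjusted p = 2.80e-04). Partners of the members are given here outside the naming rule, after their values were seen: the CD3 chain CD3D differed by 1.83, the zeta chain CD247 by 1.43 and the CD8 beta chain CD8BP by 2.18. CD8BP was highest in bird 4 in both PBMC (4.43) and whole blood (2.00), whereas bird 4 had the lowest PBMC level of the brightest CD8A probe.

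All 8 tested costimulatory and checkpoint receptors were higher in PBMC, with a median difference of 2.33. CD200R1A, the gene matched to the inhibitory receptor CD200R1, differed by 2.71 ± 0.23 (SE) and the adhesion receptor CD226 by 2.52 ± 0.14 (SE), which was 1.26 with normexp. LAG3, an inhibitory receptor for MHC class II, differed by 2.45 ± 0.33 (SE). CD28, named for its place beside CTLA4, differed by 2.37 ± 0.15 (SE), with means of 2.11 ± 0.19 in PBMC and −0.26 ± 0.16 in whole blood (SD, n = 4 each).

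In the gene order of the chicken assembly GRCg7b, counted over protein-coding genes, ICOS, CTLA4 and CD28 stand next to each other, CD3E stands next to CD3D, and CD4 next to LAG3. Positions are not given, as the build of that table differs from the one named in the array files.

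The ligands that these receptors bind are mostly made by other cells. Of the 6 tested, 4 were read well above background on each of the 8 arrays, and these 4 were higher in PBMC, with a median difference of 1.75. Over all 6 the median was 2.20, and it was 1.02 with normexp and 1.03 with the authors' values. The 6 include CD88, which was reached from CD80 through a synonym and may not be that ligand. CD86, a ligand of CD28 and CTLA4, differed by 3.35 ± 0.52 (SE), but was well above background on 2 of 4 whole blood arrays and fell to 0.99 with normexp. ICOSLG, the ligand of ICOS, was not well above background on any whole blood array. Its measured means were −3.52 in PBMC and −5.97 in whole blood (limma adjusted p = 5.05e-06). Each whole blood array was then set to its dimmest signal that still counted as well above background, or to the ICOSLG reading if that was more. The whole blood mean was then −5.96, and PBMC was 5.46-fold higher. This fold rests almost wholly on readings not above background, so it sets no lower limit, and the size was not settled. CD276, a B7 family member, differed by 2.37.

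Signalling below the receptor moved one way. All 15 tested genes of proximal receptor signalling were higher in PBMC, with a median difference of 2.23. BCL10, another adaptor of this pathway, lost its call with the mean of its probes (0.63 by the brightest probe, 0.23 by the mean). The adaptor FYB1 differed by 2.58 ± 0.13 (SE) and the kinase FYN by 2.54 ± 0.13 (SE).

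Genes of signalling by IL7R and other receptors of the common gamma chain were mixed: of 12 tested, 6 were higher, 2 lower and 4 did not pass, with a median of 1.17. IL21R, the receptor for interleukin 21, differed by 2.91 ± 0.45 (SE; 1.22 with normexp; well above background on 2 of 4 whole blood arrays). IL4R differed by 2.65 ± 0.21 (SE; 1.34 with normexp) and the survival gene BCL2 by 2.53 ± 0.13 (SE). The chains and kinases that work with IL7R are named outside the rule, after their values were seen, and their differences were not tested against its own of 2.74. The common gamma chain IL2RG differed by 1.94 ± 0.15 (SE) and its kinase JAK3 by 2.06 ± 0.17 (SE).

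JAK1, the kinase bound to IL7R itself, differed by 0.31 ± 0.20 (SE, limma adjusted p = 0.177), and by 0.83 with quantile normalization and 0.87 with cyclic loess, where it passed. The genes that were lower were CISH, a feedback inhibitor induced by STAT5, at −2.41 ± 0.30 (SE, limma adjusted p = 7.09e-05), and the transcription factor STAT5A at −0.88 ± 0.13 (SE, limma adjusted p = 1.89e-04). SOCS1 at 0.19, IL2RB at 0.40 and IL2RA at 0.02 did not pass, and the 3 IL2RA probes ran between −0.11 and 2.61. IL2RB passed without whole blood of bird 4 (0.52), and IL2RA with the mean of its probes (0.84).

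Of 17 tested transcription factors of T cells, 16 were higher in PBMC, with a median difference of 2.35, and so were 13 of the 14 read well above background on each array. ID3, an inhibitor of E proteins, differed by 2.86 ± 0.31 (SE), EOMES, a factor of cytotoxic and memory cells, by 2.75 ± 0.48 (SE; 1.53 with normexp), and RUNX1 by 2.73 ± 0.18 (SE). FOXO1, which in mouse T cells drives transcription of IL7R, was lower at −0.62 ± 0.15 (SE, limma adjusted p = 0.0034). That call was lost with quantile normalization (−0.27), cyclic loess (−0.32) and the mean of its 5 probes (0.03) and within either slide row alone, and the probes ran between −0.62 and 0.41. All 5 tested homing and chemokine receptors were higher, among them CXCR4, the receptor for CXCL12, by 2.36 (1.62 with normexp) and the integrin chain ITGA4 by 2.28.

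**Figure D5:**
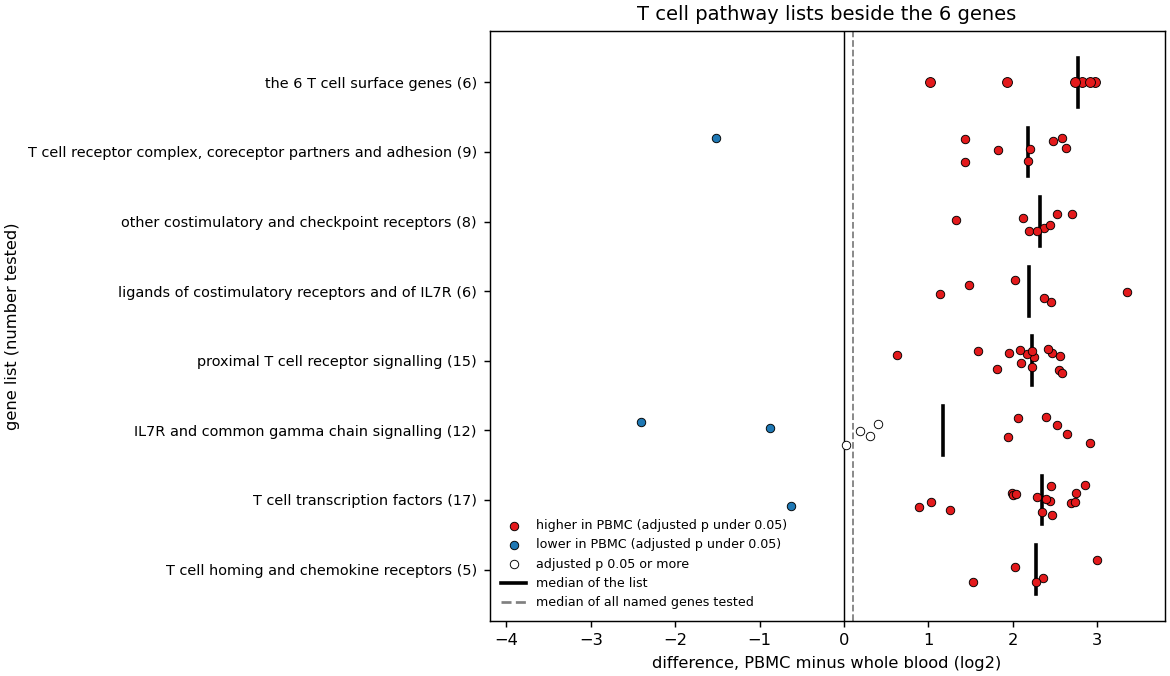
Difference PBMC minus whole blood (log2) of each tested gene of the 7 lists, 1 point per gene with the list's median, and the 6 members in the top row. Most points lie above 0, and the list of IL7R and common gamma chain signalling is spread on both sides of it.

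Markers of other blood cells moved with sample type as well. The counts below stand beside 41.8% of all named genes higher and 38.1% lower in PBMC. Summed relative signal is the sum, over a list's genes with a probe, of signal divided by the 75th percentile. For the red cell list it was 199 to 528 in PBMC and 2221 to 2465 in whole blood, with 10 of 11 genes lower and none higher. Thrombocyte markers summed to 173 to 263 in PBMC and 36.0 to 68.3 in whole blood, with 5 of 7 higher and 1 lower. B cell markers summed to 38.1 to 66.1 in PBMC and 7.53 to 11.01 in whole blood, with 6 of 7 higher. Monocyte and macrophage markers summed to 71.0 to 135 in PBMC and 14.8 to 32.2 in whole blood, with 6 of 6 higher.

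Cytotoxic and natural killer cell markers summed to 9.22 to 22.6 in PBMC and 1.52 to 3.54 in whole blood, with 7 of 8 higher. Heterophil markers summed to 7.92 to 18.6 in PBMC and 26.5 to 35.7 in whole blood, with 3 of 6 lower and none higher. The defining marker CD14 of monocytes was not well above background in either sample type, and MARCO and IFNG were not in whole blood. The PBMC label was thus matched by lymphocyte and monocyte markers, with the summed thrombocyte signal also higher and red cell signal still present. The median level of the thrombocyte list was lower in PBMC than in whole blood in bird 3 (0.54 in PBMC, 1.66 in whole blood) and bird 4 (0.65 in PBMC, 1.23 in whole blood). The part of these cells in the differences of the 6 genes was not tested, and several genes of the lists above are known to be shared by other white cells, PTPRC, CXCR4 and BCL2 among them.

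For each member, the 3 most similar of 5530 named genes with a value on every array were found by the root mean square difference of levels over the 8 arrays, each gene centred on its mean. As both sample types enter, likeness rests mostly on the size of the PBMC to whole blood difference. Nearest to CD3E were DARS (0.07), MCM6 (0.07) and CD3D (0.09). Nearest to IL7R were RPP38 (0.10), GNE (0.11) and TTC27 (0.12). Nearest to CD8A were NMT1 (0.12), SH3KBP1 (0.12) and GDF3 (0.13), and nearest to CD4 were GPR183 (0.19), SIPA1L1 (0.23) and NEDD1 (0.23).

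CTLA4 and ICOS had no gene as near. The closest to CTLA4 were TMEM175 (0.26), GNAI1 (0.27) and THYN1 (0.29), and the closest to ICOS were GFI1 (0.41), SOCS2 (0.41) and DNAJC24 (0.45). Among the members themselves, CTLA4 was the 59th nearest gene to ICOS at 0.60, and IL7R was the 136th nearest to CD4 at 0.37. CD3D was thus the only neighbour in gene order to appear among the 3 nearest of a member.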

How the data were processed

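RNA extracted with TRIzol was labelled with Cy3 and hybridised to a custom chicken array, per the labels' protocols. The spot intensity was background-subtracted and detrended by Agilent Feature Extraction before the files were deposited (version 10.7.3.1 per the file headers, 10.7.1.1 per the submitters' processing notes). The authors' deposited table holds log2 values of 46154 probes, each column equal to the log2 of the median pixel signal minus 1 constant, with a median of 0. How its probes were selected is unstated: not given in the sources used here.

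Control spots (1319 per array) and outlier flags were left out. The processed signal was divided by the 75th percentile of its array and log2 taken. Spots of a probe were averaged, and a gene was read by its brightest probe. RefSeq names (assembly GRCg7b) were matched to 17665 probes: 10812 by accession, 5161 by gene number and 1692 by symbol. Features well above background on all 4 arrays of a group (34043 of 49970) were fitted with limma 3.58.1 (R 4.3.3) and adjusted by Benjamini-Hochberg at 0.05. The fit was tested on simulated data. Pairs of genes were compared by exact permutation. The reported fit, the permutation and the standard errors of pairs took the arrays as unpaired, and the bird entered only in alternatives. Within birds, deviations from group means correlated at 0.436, 0.481, 0.360 and 0.420, against at most 0.0428 between birds, so the bird pairs the samples, as the design text states. The members and lists were chosen with earlier results of these data known. By the naming rule, up to 3 genes per list and direction with the largest change past the threshold are named. A few of those genes are left out of the text. Through synonyms CD80 was read as CD88 and CD200R1 as CD200R1A, which may be wrong; STAT5B, FOXP3 and CD8B resolved to STAT5A, FOXP1 and CD8BP, which were listed themselves and counted once. Alternatives were normexp (offset 50, on the median signal), the authors' values, quantile normalization, cyclic loess, the mean of probes, other filters, bird or slide row as a block, each slide row alone and leaving out arrays or birds. No columns were left unused (0).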

Additional observations from a re-analysis of the deposited data

Results flagged for a closer look

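In 7 of 44 groups of 4 arrays (22 probes in each sample type), 1 array lay far from the others, with a gap to its nearest neighbour that was a large part of the group's range (above Dixon's critical value for 4 samples). Chance alone would flag about 5% of groups if values were normally spread. The 44 groups come from 6 genes on the same 8 arrays and are not independent, so no excess over that share is read from the 7. For ICOS, whole blood of bird 1 lay low, with a gap of 0.967 of the range, at a signal that was not well above background. For CTLA4, PBMC of bird 4 lay high on both probes (0.852 and 0.847). For the brightest CD4 probe, whole blood of bird 3 lay low (0.869), where the 3 other CD4 probes had their highest whole blood values. Without that array CD4 differed by 2.59. The third CD3E probe was high in PBMC of bird 4 (0.918). The seventh CD8A probe was low in PBMC of bird 2 (0.953), and the fourth was high in whole blood of bird 1 (0.837).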

How the results depend on the processing

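The direction and the call of each of the 6 genes were the same under every alternative that tested it; ICOS was not tested among features well above background on all 8 arrays. The processing alternatives gave 1.79 to 2.55 for CD3E, 2.48 to 2.95 for CD4, 0.77 to 1.82 for CD8A, 2.26 to 3.05 for CTLA4, 1.12 to 2.92 for ICOS and 2.45 to 2.94 for IL7R. Leaving out an array or a bird gave 1.84 to 2.06, 2.48 to 3.00, 0.95 to 1.13, 2.73 to 3.12, 2.33 to 3.26 and 2.64 to 2.82 in the same order. The number of features called ran between 22304 and 28586. With the bird as a block (replicate block) the differences are the same by construction, with SEs of 0.16 for CD3E, 0.26 for CD4, 0.15 for CD8A, 0.18 for CTLA4, 0.38 for ICOS and 0.15 for IL7R, and 27997 features were called; no member's call changed. The counts of higher genes in the 7 lists were recomputed after seeing the data and stayed within 1.5 times; FOXO1, the lower transcription factor, lost its call, and within slide row 2 alone PDCD1, CD88 and BCL10 lost theirs.

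The ratio of CD4 to CD8A, 1.80, was 1.53 to 2.01 with an array or bird left out. Among probe combinations added after seeing the data, 11 of 28 no longer passed, at 0.84, 0.60, 0.513, 0.512, 0.45, 0.43, 0.337, 0.336, 0.30, 0.205 and 0.203 (exact permutation p up to 0.4). ICOS over CD3E changed sign under normexp (−0.84), the authors' values (−0.63) and cyclic loess (−0.092). Under normexp and the authors' values it passed the exact permutation test in that opposite direction. The cause was not tested. Of the 9 pairs that passed, 4 passed without each array in turn. Signals near background, as for ICOS in whole blood, limit how closely a fold can be read, and 4 birds limit the exact tests.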
